A study of Saccharomyces cerevisiae with 9 samples.

Results

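The RNA exosome and the Ski complex together degrade RNA from its 3′ end. Ribosome footprints on 10 genes of this machinery were examined, chosen by name as SKI2, SKI3, SKI8 and SKI7, the core exosome genes SKI6, RRP43, RRP45, RRP4 and DIS3, and the nuclear exosome gene RRP6. Each symbol matched 1 entry of the isoform table through its systematic name, and the 10 entries were set against a table of 6952 entries. All 10 passed the filter on low counts in every comparison. Footprints are the mRNA pieces that a ribosome shields from RNase I, so their number on a transcript depends on the amount of mRNA and on how densely ribosomes sit on it. With footprint libraries alone, these quantities cannot be told apart.

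The core exosome is a barrel of RNase PH-like proteins (Ski6, Rrp43, Rrp45 and others) under a cap of RNA-binding proteins (Rrp4 and others), and RNA is threaded through it to the nuclease Dis3 at its base. Rrp6, a further exonuclease, joins the complex in the nucleus and acts in the processing of ribosomal and small RNAs. In the cytoplasm the Ski2 helicase, held by Ski3 and Ski8, feeds mRNA into the exosome, and Ski7 links both complexes. The SKI genes were named superkiller after mutants with raised levels of the yeast killer virus toxin. In normal cells Pab1 coats the poly(A) tail, which in general mRNA decay is shortened before the mRNA body is degraded.

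The libraries came from Saccharomyces cerevisiae strain W303 grown in rich YEPD medium, with 3 libraries per group. WT carried both PAB1 and PBP1, pbp1Δ carried URA3 in place of PBP1, and pab1Δpbp1Δ in addition carried kanMX in place of PAB1, so both mutants shared the PBP1 deletion. PAB1, which codes for the cytoplasmic poly(A)-binding protein, is essential unless a suppressor such as the loss of its binding partner Pbp1 is present, which makes pbp1Δ the control for the loss of Pab1. The methods describe the WT libraries as repeats of 1 strain, the pbp1Δ libraries as separate isolates, and the pab1Δpbp1Δ isolates as descendants of 1 pbp1Δ isolate. The results text of the study instead calls all of them biological replicates, and the labels do not settle this, so the spread among WT libraries may be technical. Loss of Pab1, the descent of these isolates, the kanMX marker and slower growth cannot be told apart.

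Total expected counts lay between 3149040 and 6903587 per library, with the lowest total in the third pab1Δpbp1Δ library. Normalized PAB1 counts were 4565 or more in every library with the gene and at most 2.94 in pab1Δpbp1Δ, and PBP1 counts were 778 or more in WT and at most 3.30 in both mutants, as the labels say. The share of a library's counts on the 10 genes lay between 0.0727% (95% Wilson interval 0.0706% to 0.0748%, counting error only) in the first pbp1Δ library and 0.0976% (0.0949% to 0.1003%) in the second WT library. Fold changes also trended with transcript length. In pab1Δpbp1Δ against pbp1Δ the median log2 fold change was -0.09 in the longest 10% of entries and 0.39 in the shortest 10%, and against WT these medians were -0.20 and 0.66. The part of this trend in single-gene results was not tested as a cause, and values from a fit with the trend removed, an alternative chosen after seeing the data, are given where they move a call.

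The genes are spread over the genome and have no common neighbourhood. In the R64 reference annotation, which is of strain S288C and not of W303, SKI2 (YLR398C) spans chrXII:915156-919019 and SKI3 (YPR189W) spans chrXVI:912664-916962. SKI8 (YGL213C) lies at chrVII:90054-91247, SKI7 (YOR076C) at chrXV:469377-471620, SKI6 (YGR195W) at chrVII:888882-889622 and RRP43 (YCR035C) at chrIII:191834-193018. RRP45 (YDR280W) lies at chrIV:1020747-1021664, RRP4 (YHR069C) at chrVIII:233579-234658, DIS3 (YOL021C) at chrXV:282421-285426 and RRP6 (YOR001W) at chrXV:326832-329033. Effective transcript lengths, the number of positions a footprint can start from, ran from 886 bases for SKI6 to 4529 for SKI3.

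When Pab1 was absent, footprints on RRP6 fell, and no other of the 10 genes passed the test against pbp1Δ. The lowest values beside RRP6 belonged to RRP43 and DIS3, and the highest to SKI3. A gene was called where its DESeq2 p-value, adjusted by Benjamini-Hochberg over all entries tested, lay below 0.01. By that rule 1 of the 10 genes was called lower and 0 higher, beside 10.2% and 11.1% of the 5772 entries tested. The median log2 fold change of the 10 genes was -0.20, and that of all entries tested was 0.03. In normalized counts, RRP43, DIS3 and RRP6, 3 of 10 genes, had all pab1Δpbp1Δ libraries below all pbp1Δ libraries, which held for 22% of all entries. The plot of normalized counts shows each library.

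**Figure D1:**
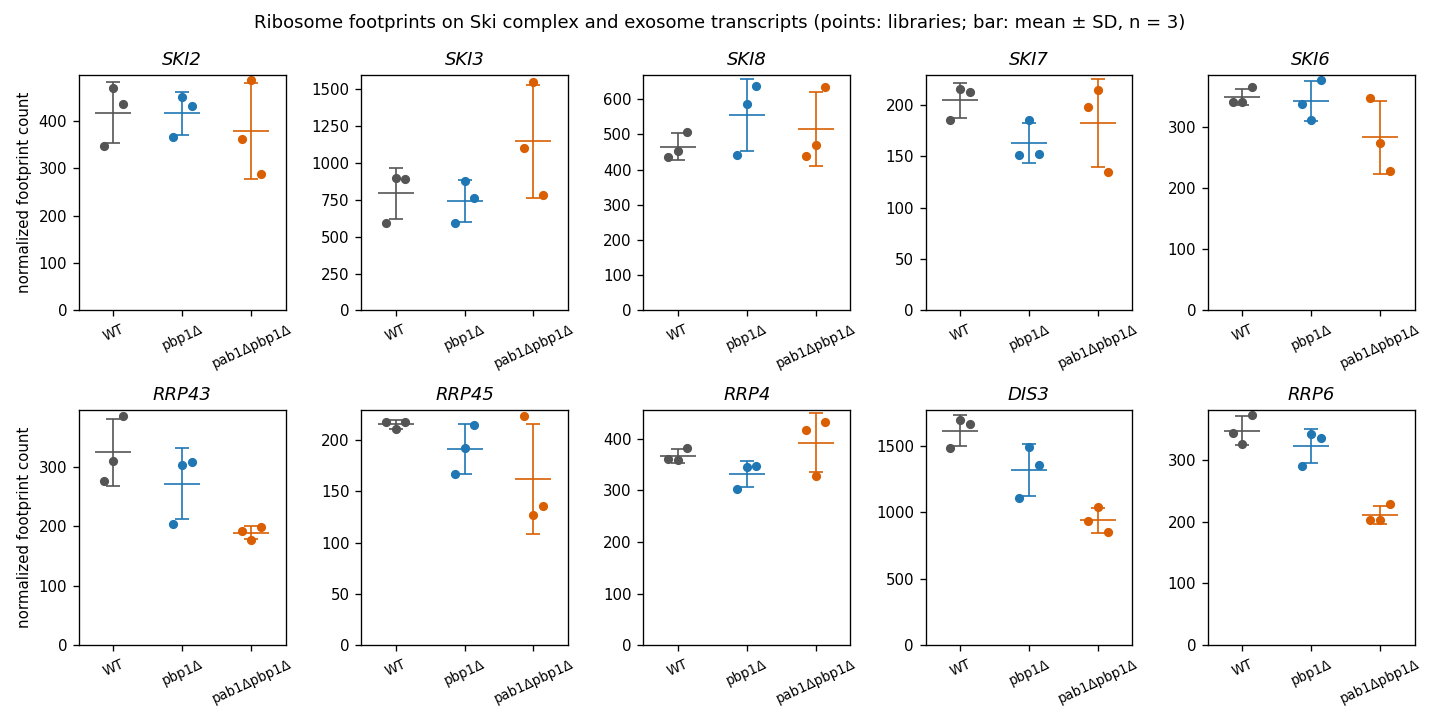
Normalized footprint counts (y axis, linear, from 0) of the 10 genes in WT, pbp1Δ and pab1Δpbp1Δ; each point is 1 library and bars give the mean ± SD of 3 libraries. For RRP43, DIS3 and RRP6 the pab1Δpbp1Δ points lie below all other points, while for SKI3 they spread from 784 to 1551.

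RRP6 encodes the nuclear exonuclease of the exosome. Its normalized counts were 343, 326 and 373 in WT, 290.3, 341 and 335 in pbp1Δ, and 203, 202 and 228 in pab1Δpbp1Δ. The pab1Δpbp1Δ libraries lay below the other 6 and differed little among themselves, with a mean of 211 ± 14.8 (SD, n = 3) against 322 ± 27.7 in pbp1Δ. The fold change against pbp1Δ was 0.646, a log2 fold change of -0.63 (SE 0.19, DESeq2 adjusted p = 0.00508). Of all entries tested, 34.5% had a larger fold change in either direction. The study also measured proteins by mass spectrometry. It reported no significant change of exosome components at the protein level in this comparison, and its text does not name the subunits.

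The call for RRP6 lay close to the threshold while its size moved less. Over 18 alternative settings the log2 fold change ran from -0.70 to -0.44 and the adjusted p from 0.000319 to 0.0552, with 8 settings keeping the call. edgeR gave -0.62 with an adjusted p of 0.0111, and the fit with the length trend removed gave -0.44 with an adjusted p of 0.0526. Without the second pbp1Δ library the adjusted p was 0.0552, without the third it was 0.0484, and without the first or the second pab1Δpbp1Δ library it was 0.0216 or 0.0322. Neither neighbour of RRP6 on chromosome XV was called in this comparison. PHO80, 701 bases away, had a log2 fold change of -0.48 (adjusted p = 0.35), and ALG6, 383 bases away on the other side, had -0.53 (adjusted p = 0.0371).

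DIS3 encodes the catalytic subunit of the core exosome, with both exonuclease and endonuclease activity, and had the most counts of the 10 genes. They were 1480.4, 1692 and 1664 in WT, 1108, 1493 and 1355 in pbp1Δ, and 932, 1038 and 847 in pab1Δpbp1Δ. All pab1Δpbp1Δ libraries lay below the others, though the first pbp1Δ library was nearer to them than to the other pbp1Δ libraries. The log2 fold change against pbp1Δ was -0.50 (SE 0.18, 95% interval -0.85 to -0.16), and its adjusted p of 0.0176 missed the threshold. Without the first pbp1Δ library it was -0.61 (DESeq2 adjusted p = 0.00248), and in a fit on all 9 libraries -0.49 (adjusted p = 0.00423), both calls.

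Against WT, where the same pab1Δpbp1Δ libraries enter, DIS3 fell to 0.581 of its WT level (log2 fold change -0.78, SE 0.15, DESeq2 adjusted p = 6.79e-07). This call held in 18 of 18 alternative settings, with log2 fold changes from -0.86 to -0.51. RRP6 likewise fell, to 0.602 of the WT level (log2 fold change -0.73, SE 0.18, adjusted p = 0.000316). It was called in 17 of 18 settings and not with the length trend removed, where the value was -0.46 (adjusted p = 0.0271).

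RRP43, SKI6 and RRP45 encode RNase PH-like subunits of the barrel, which have lost the catalytic activity of their bacterial relatives. RRP43 had normalized counts of 276, 310.0 and 386 in WT, 203, 303.2 and 308 in pbp1Δ, and 191, 177 and 199 in pab1Δpbp1Δ. The pab1Δpbp1Δ libraries were the lowest, with the first pbp1Δ library just above them. Against pbp1Δ the log2 fold change was -0.54 (SE 0.23, 95% interval -0.997 to -0.08), with an adjusted p of 0.0654. Without the first pbp1Δ library it was -0.71 and was called (DESeq2 adjusted p = 0.00428).

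Against WT, RRP43 fell to 0.58 of its level (log2 fold change -0.79, SE 0.21, DESeq2 adjusted p = 0.000684), in 17 of 18 alternative settings. The call was lost without the third WT library, the one with the highest RRP43 count, where the value was -0.64 (adjusted p = 0.0176). With the length trend removed the value stayed at -0.79.

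SKI6, also known as RRP41, had normalized counts of 340.0, 341 and 364 in WT, 337, 311 and 377 in pbp1Δ, and 346, 273 and 228 in pab1Δpbp1Δ. The first pab1Δpbp1Δ library lay within the range of the other groups and the remaining ones lay below it. The log2 fold changes were -0.28 against pbp1Δ (95% interval -0.71 to 0.14, adjusted p = 0.344) and -0.30 against WT (adjusted p = 0.24). SKI6 has the shortest transcript of the 10 genes, and with the length trend removed the values were -0.52 (adjusted p = 0.0356) and -0.65 (adjusted p = 0.00328), the latter a call.

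RRP45 had its pab1Δpbp1Δ libraries split likewise. The normalized counts were 217, 211 and 218 in WT, 167, 192 and 215 in pbp1Δ, and 224, 126 and 136 in pab1Δpbp1Δ. The first pab1Δpbp1Δ library was the highest of the 9 and the other pab1Δpbp1Δ libraries were the lowest. The log2 fold changes were -0.25 against pbp1Δ (95% interval -0.80 to 0.30, adjusted p = 0.554) and -0.41 against WT (adjusted p = 0.212). Without that first library the value against WT was -0.73 and was called (DESeq2 adjusted p = 0.0046).

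RRP4 encodes a cap subunit with RNA-binding domains. Its normalized counts were 360.1, 359 and 382 in WT, 302.6, 346 and 347 in pbp1Δ, and 416, 328 and 433 in pab1Δpbp1Δ. Of the 6 exosome genes it was the one with a positive log2 fold change against pbp1Δ, 0.22 (95% interval -0.16 to 0.60, adjusted p = 0.417), and against WT the value was 0.09 (adjusted p = 0.75). Neither value passed the test, and the pab1Δpbp1Δ libraries overlapped both other groups.

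**Figure D2:**
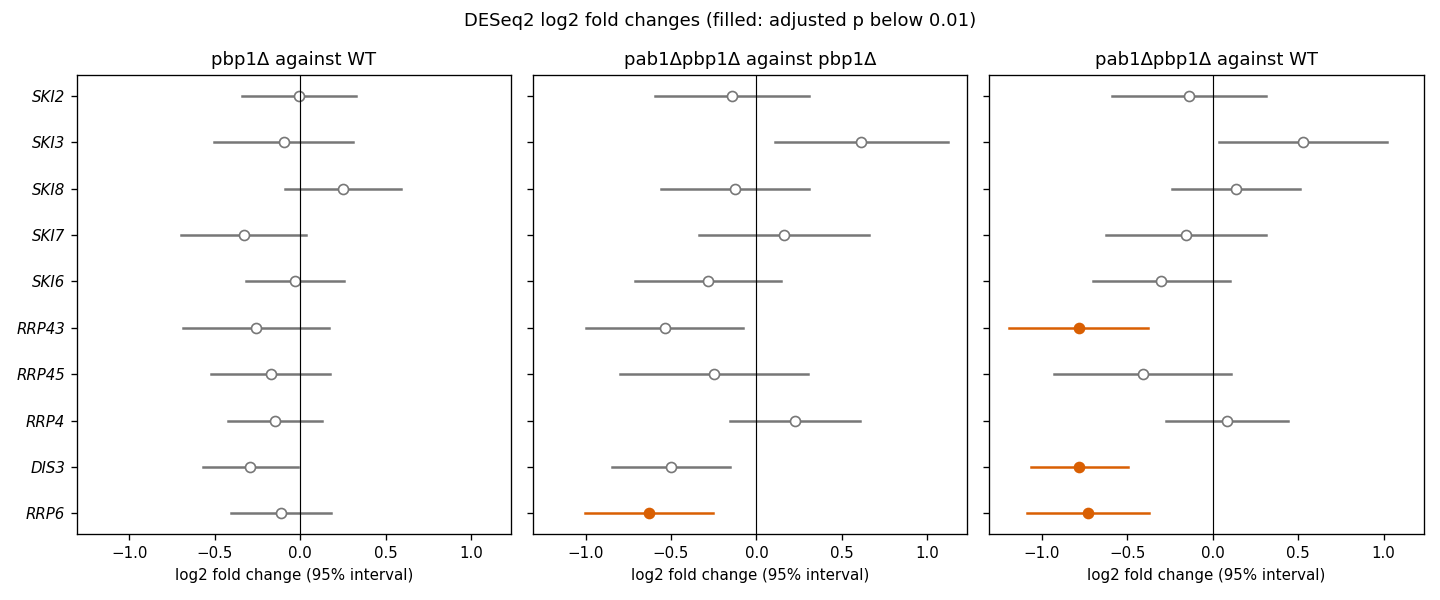
DESeq2 log2 fold changes (x axis) of the 10 genes in the 3 comparisons, with 95% intervals over 3 libraries a group; filled points have an adjusted p below 0.01. RRP6 is filled against pbp1Δ at -0.63, RRP43, DIS3 and RRP6 are filled against WT between -0.79 and -0.73, and no point is filled in pbp1Δ against WT.

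None of SKI2, SKI3, SKI8 and SKI7 was called in any comparison with DESeq2. Over all entries tested, 10.2% were called lower and 11.1% higher in pab1Δpbp1Δ against pbp1Δ. The shares were 15.3% and 15.7% in pab1Δpbp1Δ against WT, and 1.21% in either direction in pbp1Δ against WT. For 4 genes, 0 calls is not far from these shares. The highest value among the 10 genes was that of SKI3. SKI3, the scaffold of the complex with tetratricopeptide repeats, had normalized counts of 589.7, 899 and 891 in WT, 591, 877 and 761 in pbp1Δ, and 1104, 1551 and 784 in pab1Δpbp1Δ. The first and second pab1Δpbp1Δ libraries lay above all other libraries, and the third, the least deep one, lay among them. The log2 fold change was 0.61 against pbp1Δ (SE 0.26, 95% interval 0.11 to 1.12, DESeq2 adjusted p = 0.0542) and 0.53 against WT (adjusted p = 0.0809).

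The call for SKI3 differed with the libraries in the fit and with the length correction. Without the third pab1Δpbp1Δ library they were 0.83 (adjusted p = 0.00529) and 0.74 (adjusted p = 0.00859), both calls, and without the second they were 0.34 (adjusted p = 0.338) and 0.25 (adjusted p = 0.452). SKI3 has the longest transcript of the 10 genes. On the log2 scale its deviations from the pab1Δpbp1Δ mean were 0.00, 0.49 and -0.49 in replicates 1 to 3, while the median deviations of the longest 10% of all entries were -0.14, 0.24 and -0.10. With the trend removed, its counts were 577, 815 and 761 in WT, 689.6, 813 and 736 in pbp1Δ, and 1328, 1413 and 905 in pab1Δpbp1Δ. On that scale the pab1Δpbp1Δ libraries no longer overlapped the others, and SKI3 was called higher against pbp1Δ (log2 fold change 0.70, adjusted p = 0.00168) and against WT (0.76, adjusted p = 0.00103).

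SKI2 encodes the helicase, and its transcript is nearly as long as that of SKI3. Its normalized counts were 347, 471 and 436 in WT, 365, 450.3 and 433 in pbp1Δ, and 363, 487 and 288 in pab1Δpbp1Δ. The pab1Δpbp1Δ libraries held both the highest and the lowest value of the 9. The log2 fold change was -0.14 against pbp1Δ (95% interval -0.59 to 0.31, adjusted p = 0.701) and -0.14 against WT (adjusted p = 0.672). Leaving out the third pab1Δpbp1Δ library moved these values to 0.02 and 0.02.

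SKI8 encodes the WD repeat subunit, which also has a separate role in meiotic recombination. Its normalized counts were 435, 453 and 507 in WT, 440.3, 585 and 638 in pbp1Δ, and 439, 470.4 and 634 in pab1Δpbp1Δ. Every group reached down to about the same level, and the log2 fold change against pbp1Δ was -0.13 (95% interval -0.56 to 0.31, adjusted p = 0.722). SKI7, the link between the Ski complex and the exosome, had 185, 216 and 212 in WT, 151, 185 and 152 in pbp1Δ, and 198, 215 and 134 in pab1Δpbp1Δ. The groups overlapped, and the log2 fold change against pbp1Δ was 0.16 (95% interval -0.34 to 0.66, adjusted p = 0.691).

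Against WT, the values of SKI8 and SKI7 were 0.13 (adjusted p = 0.62) and -0.16 (adjusted p = 0.642). In this comparison 3 of the 10 genes were called lower and 0 higher, beside 15.3% and 15.7% of the 5880 entries tested, and their median was -0.23 beside 0.05 for all entries. RRP43, DIS3 and RRP6 were again the 3 genes with all pab1Δpbp1Δ libraries below, which held for 26% of entries. The comparisons against pbp1Δ and against WT share the pab1Δpbp1Δ libraries.

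Loss of Pbp1 alone left all 10 genes uncalled. With DESeq2, 0 of 10 passed in pbp1Δ against WT, and 1 had an unadjusted p below 0.05 beside 12.7% of all entries. Of the 5638 entries tested, 1.21% were called. edgeR and limma also called 0 of the 10. Over the whole table edgeR called 1 of 5204 entries and each limma fit 1 of 5330, so their 0 calls say little about these genes. The log2 fold changes ran from -0.33 for SKI7 (95% interval -0.69 to 0.03, adjusted p = 0.469) to 0.25 for SKI8 (95% interval -0.09 to 0.59, adjusted p = 0.619), with a median of -0.13 beside 0.00 for all entries. DIS3 was the gene with the unadjusted p of 0.0402, at -0.29 (95% interval -0.57 to -0.01, adjusted p = 0.36). RRP4 was the only one of the 10 whose groups did not overlap in normalized counts, with pbp1Δ below WT at -0.15 (adjusted p = 0.768). Of all entries, 11.4% had pbp1Δ below WT throughout.

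Footprint density, given as FPKM, is scaled by transcript length and so allows levels of different genes to be compared approximately. That length includes untranslated regions, while the study found footprints mostly in coding regions. The effective length was 1148 bases for RRP45, beside an annotated gene span of 918, and 4529 for SKI3, beside 4299. In WT it was highest for DIS3 at 93.9 ± 5.70 (SD, n = 3), followed by SKI6 at 71.7 ± 0.616, SKI8 at 59.5 ± 2.78, RRP4 at 55.4 ± 0.448 and RRP43 at 44.5 ± 6.09. RRP45 followed at 34.2 ± 1.11, SKI3 at 31.9 ± 6.59 and RRP6 at 27.5 ± 1.20, then SKI2 at 18.6 ± 2.70 and SKI7 at 15.1 ± 1.06. The WT libraries of RRP45 and SKI3, of SKI3 and RRP6, and of SKI2 and SKI7 overlapped, and those of the other neighbours in this order did not.

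The order at the top differed in pab1Δpbp1Δ. DIS3 had a density of 77.1 ± 11.1 in pbp1Δ and of 58.9 ± 6.12 in pab1Δpbp1Δ, where SKI8 (70.9 ± 14.3), RRP4 (63.8 ± 9.04) and SKI6 (62.6 ± 13.2) had higher means. Those 4 genes overlapped in the pab1Δpbp1Δ libraries, so their order there is not resolved. SKI3 had the next mean at 49.8 ± 16.8, from 30.0 ± 5.68 in pbp1Δ, and its pab1Δpbp1Δ libraries overlapped those of all 4 and of RRP45. By mean, RRP43 followed at 28.0 ± 1.56 and RRP45 at 27.7 ± 9.16, then SKI2 at 18.2 ± 4.87, RRP6 at 18.0 ± 1.24 and SKI7 at 14.5 ± 3.40. Here RRP43 and RRP45, RRP45 and SKI2, and SKI2 and RRP6 overlapped as well. In density, the pab1Δpbp1Δ libraries of RRP6 stayed below those of pbp1Δ (17.3 to 19.4 against 23.1 to 27). Those of DIS3 (53.1 to 65.3 against 64.9 to 86.8) and RRP43 (26.3 to 29.4 against 28.0 to 42.7) overlapped pbp1Δ, unlike their normalized counts.

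Subunits of 1 complex differed widely in density. The core subunits not among the 10 genes had WT means from 39.3 for the cap gene RRP40 to 152 for the ring gene RRP46, with 45.5 for the cap gene CSL4, 46.0 for the ring gene MTR3 and 72.8 for the ring gene RRP42. In pab1Δpbp1Δ these means were 63.4 for RRP40, 188 for RRP46, 46.3 for CSL4, 46.2 for MTR3 and 112 for RRP42.

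**Figure D3:**
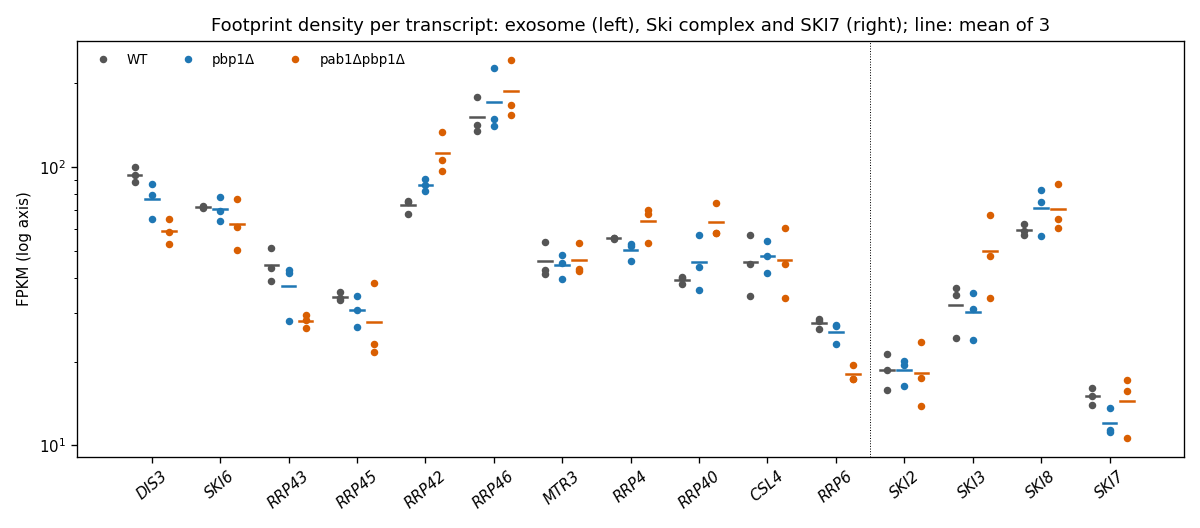
Footprint density (FPKM, log axis) of the 11 exosome genes on the left and of the Ski complex and SKI7 on the right; points are libraries, coloured by group, and lines are means of 3. DIS3 has means of 93.9, 77.1 and 58.9 in WT, pbp1Δ and pab1Δpbp1Δ, and SKI2 stays between 18.2 and 18.6.

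Ratios of density between genes of the same library do not depend on how libraries were scaled to each other. Where the genes differ in length, the length trend still enters them. The ratios described here were chosen after their values were seen. SKI3 over SKI2, scaffold over helicase, was 1.54, 1.73 and 1.85 in WT, 1.47, 1.76 and 1.59 in pbp1Δ, and 2.75, 2.88 and 2.46 in pab1Δpbp1Δ. The pab1Δpbp1Δ libraries, the third one included, lay above the other 6, although SKI3 counts alone overlapped. Ratios of any entry to SKI2 were free of overlap between pab1Δpbp1Δ and pbp1Δ for 30.9% of 5379 entries.

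Within the exosome, the cap gene RRP4 over RRP6 was 2.00, 2.10 and 1.95 in WT, 1.98, 1.93 and 1.98 in pbp1Δ, and 3.92, 3.09 and 3.62 in pab1Δpbp1Δ. WT and pbp1Δ libraries kept within 1.93 to 2.10, and the pab1Δpbp1Δ libraries stood apart from them. Of all entries, 60.1% had a ratio to RRP6 free of overlap. The effective lengths are 1209 bases for RRP4 and 2304 for RRP6. With the length trend removed, mean counts in WT, pbp1Δ and pab1Δpbp1Δ were 378, 334 and 379 for RRP4 and 320, 314 and 234 for RRP6. On that scale the pab1Δpbp1Δ ratios still stood apart, but those of WT lay above those of pbp1Δ. RRP4 over the ring gene RRP43 was 1.43, 1.27 and 1.09 in WT, 1.64, 1.25 and 1.24 in pbp1Δ, and 2.39, 2.03 and 2.39 in pab1Δpbp1Δ, where the share of all entries was 42.7%. DIS3 over RRP4 was 1.59, 1.82 and 1.68 in WT, 1.42, 1.66 and 1.504 in pbp1Δ, and 0.864, 1.22 and 0.756 in pab1Δpbp1Δ, with no overlap, beside 44.4% of all entries in their ratio to RRP4.

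The ratio of one nuclease to the other did not separate the groups. DIS3 over RRP6 was 3.17 to 3.81 in WT, 2.81 to 3.21 in pbp1Δ and 2.73 to 3.77 in pab1Δpbp1Δ. SKI8 over SKI2 also overlapped, with 3.6005, 2.76 and 3.34 in WT, 3.46, 3.73 and 4.24 in pbp1Δ, and 3.48, 2.77 and 6.30 in pab1Δpbp1Δ. Over the 45 pairs of the 10 genes, 18, or 40%, were free of overlap in pab1Δpbp1Δ against pbp1Δ. The share of all entries free of overlap in their ratio was 49% to DIS3, 41.7% to SKI3, 37.5% to SKI6, 32.4% to SKI7, 30.2% to SKI8 and 27.5% to RRP45.

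**Figure D4:**
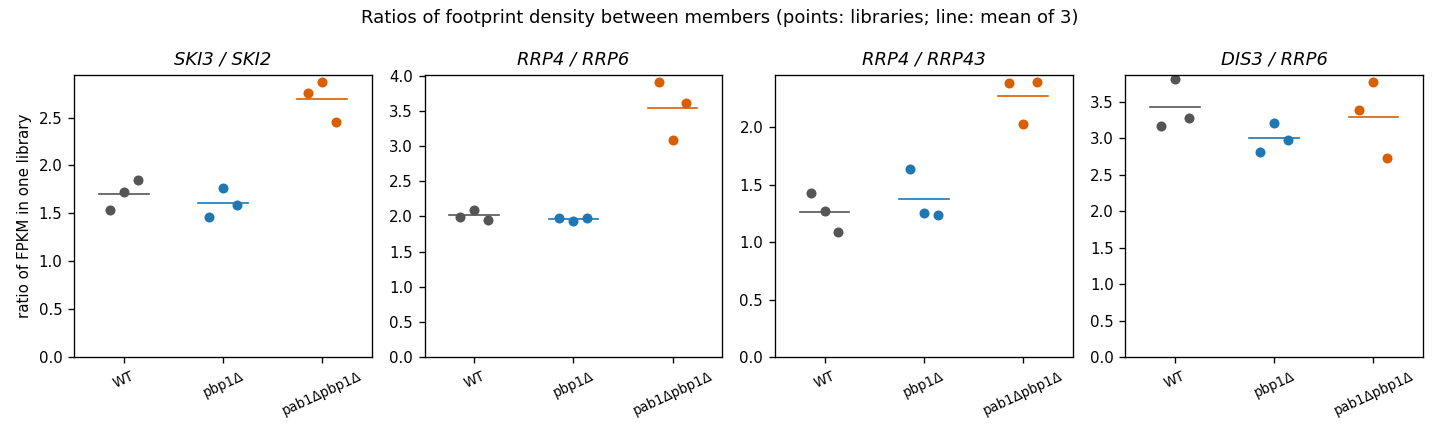
Ratio of FPKM between genes within each library (y axis, linear, from 0) for SKI3 over SKI2, RRP4 over RRP6, RRP4 over RRP43 and DIS3 over RRP6; points are libraries and lines are means of 3. The pab1Δpbp1Δ points of the first 3 ratios lie above all others, from 2.46 to 2.88 for SKI3 over SKI2, and those of DIS3 over RRP6 overlap the others.

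Across the 9 libraries, on the scale of log2 normalized counts, RRP43, DIS3 and RRP6 had profiles that resembled each other, with Pearson correlations of 0.92 for RRP43 and RRP6, 0.91 for RRP43 and DIS3 and 0.89 for DIS3 and RRP6. SKI6 and RRP45 followed at 0.86. The lowest correlation was -0.60, of SKI3 and RRP6. These correlations describe 9 libraries that fall into 3 groups and share their depth and length trend. Among 3819 other entries whose normalized counts averaged 100 or more, the profiles nearest to the mean of the 10 genes were those of STH1 (0.979), CCH1 (0.953), TIF2 (0.952), GRS1 (0.949) and WHI4 (0.948). TIF2 has the near-identical copy TIF1, and reads shared by both were divided among them by estimate. The nearest entry was NDC1 for RRP6 (0.994), YLH47 for DIS3 (0.993) and ADE4 for RRP43 (0.979).

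A list of 19 partner genes was read from the same fits. It held the 5 other core subunits, the nuclear cofactors LRP1, MPP6 and MTR4, the TRAMP genes PAP2, TRF5, AIR1 and AIR2, the Nrd1-Nab3-Sen1 genes, and SKA1, HBS1, DOM34 and CUE2 of the Ski pathway and ribosome rescue. Against pbp1Δ, 2 of the 19 were called lower and 0 higher, beside 10.2% and 11.1% of all entries, so the share of 10.5% called lower was near that of the whole table. The median log2 fold change of the list was -0.05. Both were called in 9 of 9 alternative settings, and none of the 5 other core subunits was called.

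MTR4, the helicase that delivers RNA to the nuclear exosome, fell when Pab1 was absent. Its normalized counts were 1512, 1679 and 1720.1 in WT, 1237, 1715 and 1526 in pbp1Δ, and 733, 908 and 659.8 in pab1Δpbp1Δ. The log2 fold change against pbp1Δ was -0.97 (SE 0.19, DESeq2 adjusted p = 7.6e-06), and with the length trend removed it was -0.82. HBS1, a paralogue of SKI7 that works with Dom34 to rescue stalled ribosomes, had 616, 702 and 643 in WT, 689, 791 and 755 in pbp1Δ, and 419, 398 and 310.5 in pab1Δpbp1Δ. Its log2 fold change was -0.99 (SE 0.18, adjusted p = 7.45e-07), and -0.81 with the trend removed. For both genes all pab1Δpbp1Δ libraries lay below the other 6.

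The remaining partners had smaller or more variable values against pbp1Δ. SKA1, a factor that helps the Ski complex on mRNA regions free of ribosomes, had counts of 55.8, 48.7 and 32.3 in pbp1Δ and 112, 73.5 and 87.3 in pab1Δpbp1Δ, with a log2 fold change of 0.98 (adjusted p = 0.0216). Among the core subunits the values were 0.36 for RRP40 (adjusted p = 0.28), 0.26 for RRP42 (adjusted p = 0.304), 0.01 for RRP46, -0.05 for MTR3 and -0.16 for CSL4. Loss of Pbp1 alone gave 0 calls among the 19 with DESeq2 or edgeR, where 1.21% of all entries were called with DESeq2 and edgeR called 1 entry of the table. None of the 19 had an unadjusted p below 0.05, beside 12.7% of all entries.

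Against WT, 4 of the 19 partners were called lower and 2 higher, beside 15.3% and 15.7% of all entries. The share of partners called in either direction, 31.6%, was thus near that of the whole table. MTR4 (log2 fold change -1.10, adjusted p = 3.54e-10) and HBS1 (-0.80, adjusted p = 3.55e-05) were called again. The TRAMP poly(A) polymerase genes PAP2, also known as TRF4, and TRF5 fell, with values of -0.85 (adjusted p = 0.00479) and -0.74 (adjusted p = 0.00555). Neither was called against pbp1Δ (PAP2 -0.49, adjusted p = 0.175, and TRF5 -0.38, adjusted p = 0.226) or in pbp1Δ against WT (-0.36, adjusted p = 0.483, and -0.37, adjusted p = 0.47), where all pbp1Δ libraries of both genes lay below WT. LRP1, which codes for the partner that stabilizes Rrp6, rose (0.95, adjusted p = 0.000135), as did SKA1 (1.12, adjusted p = 0.0076). PAP2, TRF5 and SKA1 were each called in 3 of 9 alternative settings, and leaving out any 1 of the WT or pab1Δpbp1Δ libraries cost at least 1 of these calls. Their values then ran from -0.98 to -0.75, from -0.82 to -0.61 and from 0.89 to 1.296. With the length trend removed, 4 of these 6 calls were lost, those of PAP2 (-0.61, adjusted p = 0.0544), TRF5 (-0.49, adjusted p = 0.0778), SKA1 (0.92, adjusted p = 0.0277) and LRP1 (0.44, adjusted p = 0.0872). The core genes RRP42 (0.51, adjusted p = 0.014) and RRP40 (0.58, adjusted p = 0.0193) missed the threshold with all pab1Δpbp1Δ libraries above WT.

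**Figure D5:**
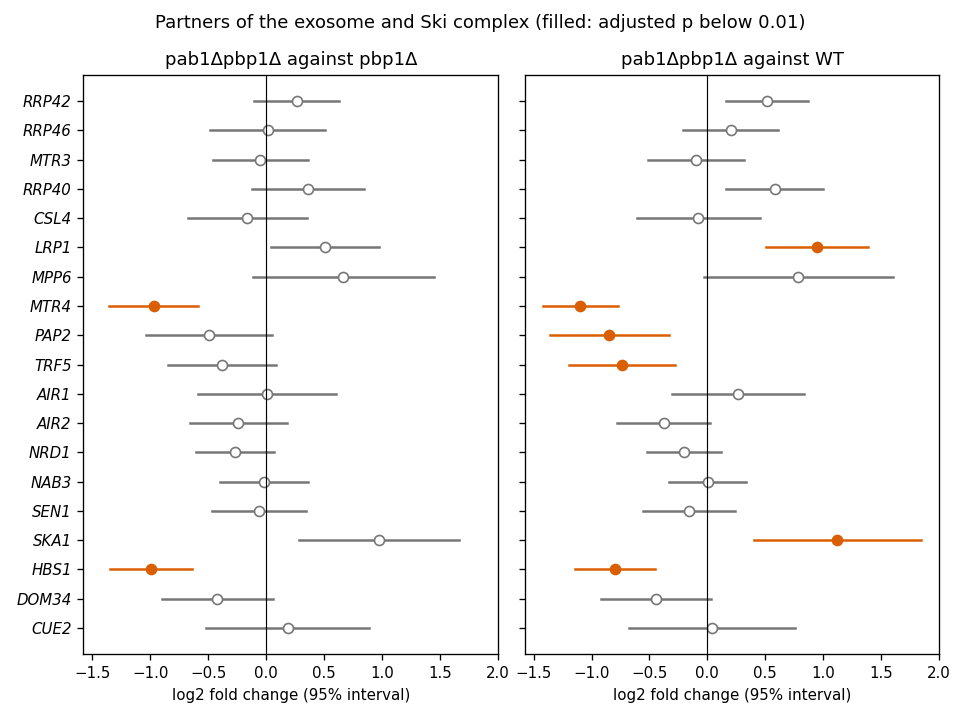
DESeq2 log2 fold changes (x axis) of the 19 partner genes in pab1Δpbp1Δ against pbp1Δ and against WT, with 95% intervals over 3 libraries a group; filled points have an adjusted p below 0.01. MTR4 and HBS1 are filled in both panels, at -0.97 and -0.99 against pbp1Δ, and no partner is filled on the higher side there.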

How the data were processed

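The authors trimmed reads with cutadapt 1.9, removed PCR duplicates with UMI-tools and quantified footprints with RSEM 1.3.0 and Bowtie 1.0.0, tools named with build R64 in the submitters' processing notes. They deposited RSEM expected counts, which divide reads shared by transcripts, per isoform (6952 entries) and per gene (6656 entries). The deposited FPKM values are the same estimates scaled by transcript length and depth. Names and coordinates came from RefSeq R64, in which all 10 symbols matched.

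Isoform expected counts were rounded and each pair of groups was compared with DESeq2 1.42.0 (R 4.3.3), 6 libraries a fit, no covariate, independent filtering at 0.01. Printed normalized counts use size factors over all 9 libraries. Intervals are 95%. Scripts were tested on simulated data. Alternatives were edgeR 4.0.16, limma 3.58.1 on log2(FPKM + 1) or log2(FPKM + 0.1) with a mean FPKM of at least 1, other scalings and filters, a minimum mean count of 10, the gene table, replicate number as a block, a fit on all 9 libraries, each library left out, and a correction of each library's trend with length. The members, lists and tests were chosen with earlier results of these data known. All 10 genes are named, with partners that were called, the core subunits, neighbours of a gene called against pbp1Δ and the entries of most similar profile.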

Additional observations from a re-analysis of the deposited data

How the results depend on the processing

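In pab1Δpbp1Δ against pbp1Δ, DESeq2 called 1 of the 10 genes. edgeR, total count scaling, the replicate block and limma at either pseudocount called 0, the fit on all 9 libraries and an adjusted p below 0.05 called 2, and leaving out 1 library gave 0 to 3. With the length trend removed the count was also 1, but of another gene. There SKI3 was called higher (0.70, DESeq2 adjusted p = 0.00168) and RRP6 was not called (adjusted p = 0.0526). Whether the replicate numbers pair the libraries is not settled. Same-numbered libraries correlated between -0.12 and 0.29 over 5300 entries, and differently numbered ones between -0.36 and 0.26. Each WT library correlated best with the pbp1Δ library of its own number. With pab1Δpbp1Δ not every library correlated best with its own number. Under the block, 1197 entries in place of 1230 were called against pbp1Δ, and RRP6 had -0.63 (adjusted p = 0.0182). Against WT the count of 3 ran from 2 to 4 with 1 library left out, and the partners called, 6 of 19, ran from 3 to 5 and were 2 with the length trend removed. Among the 10 genes, that correction against WT ended the call of RRP6 and added those of SKI3 (higher, 0.76) and SKI6 (lower, -0.65). Of 736 alternative values of 52 single-gene results, 663 kept direction and side of the threshold, 31 lost and 11 gained a call and 31 turned in sign. No value that turned in sign was called in either setting. In pbp1Δ against WT, SKI2 turned to 0.00032 with total count scaling, 0.00395 and 0.00435 with limma and 0.14 with the length trend removed, and SKI3 to 0.0537 with that correction. With 1 library left out SKI2 ran from -0.13 to 0.0847, SKI3 from -0.27 to 0.0459 and SKI6 from -0.10 to 0.0303. In pab1Δpbp1Δ against pbp1Δ, the length correction gave RRP46 -0.26, and with 1 library left out SKI2 ran from -0.36 to 0.0223, RRP46 from -0.22 to 0.26, MTR3 from -0.17 to 0.0129 and CSL4 from -0.42 to 0.0352. Against WT, the correction gave SKI2 0.10, SKI7 0.12, RRP4 -0.0053 and RRP46 -0.21, and with 1 library left out SKI2 ran from -0.36 to 0.0219, SKI7 from -0.29 to 0.0106, SKI8 from -0.0346 to 0.23, RRP46 from -0.0381 to 0.33, MTR3 from -0.23 to 0.00932 and CSL4 from -0.33 to 0.11. The cause was not tested. Total count scaling shifted the median over all entries by 0.12 against pbp1Δ and by 0.11 against WT, so RRP6 at -0.51 there includes that shift. It turned the calls over all entries against pbp1Δ from 639 higher and 591 lower to 794 and 433, and those against WT from 921 and 897 to 1098 and 695. limma gave 586 and 227 or 574 and 212 against pbp1Δ, and 1012 and 598 or 982 and 583 against WT. Leaving out 1 library took the 1230 calls against pbp1Δ to between 756 and 1201. The 68 calls of pbp1Δ against WT became 1 with edgeR or limma, 33 in the fit on all 9 libraries, 127 at 0.05, and 18 to 90 with 1 library left out. All 120 alternative values of FPKM moved by less than 1 SD. A mean of 3 libraries cannot move by 1 SD when 1 is left out, so values of that kind could not have differed. With 3 libraries a group and 95% intervals about 0.7 to 1.1 wide on the log2 scale against pbp1Δ, differences of the size of most Ski complex values here were not resolved.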
